A study of Mus musculus with 3 samples.

Results

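Histone acetylation is placed on lysines by acetyltransferases, read by bromodomain proteins and removed by deacetylases, several of which work inside corepressor complexes. The genes described here are 44 of the 20308 in the table. They were taken by symbol: every Hdac gene with a number, Sirt1 to Sirt7, genes whose symbol starts with Kat and a digit, the Brd genes with a number, and named coactivators and corepressor components, among them Ncor1, Ep300, Ep400, Sin3a, Sin3b, Rcor1, Ncoa1, Ncoa2, Ncoa3, Sap18 and Sap30. The rule uses symbols and no measured value, and all 44 had a row. They comprise 11 Hdac genes, 7 sirtuins, 7 Kat genes, 5 further coactivators, 7 Brd readers and 7 corepressor components.

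The RNA came from satellite cells, the stem cells of skeletal muscle, of mice of the Pax7-ZsGreen strain at 3 months of age, in which the fluorescent protein ZsGreen reports Pax7, the transcription factor that defines them. Each sample was a sort of about 200000 cells positive for ZsGreen, from digested hindlimb muscle pooled over several animals, although the sample labels name the tibialis anterior. The 3 libraries form 1 group with no untreated, wild-type or undigested counterpart, so all comparisons are between genes within this group. Nothing states that each library had its own pool of animals, so a p-value here reflects only how these 3 samples differ, which may be technical. Levels are TPM (a share of all transcripts, corrected for transcript length and scaled to the same total in each library), so levels of different genes can be set side by side, and errors are SD over the 3 libraries (n = 3). Read depth is unknown, because TPM keeps no read totals.

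In satellite cells these proteins meet the muscle programme at several points. The acetyltransferases p300, CBP and PCAF (encoded by Ep300, Crebbp and Kat2b) act with the muscle factor MyoD, class IIa deacetylases bind and repress MEF2 factors, and SIRT1 uses NAD to remove acetyl groups and so ties chromatin to metabolism. BET proteins bind acetylated histones and help recruit the transcription elongation machinery. Changes in acetylation accompany the passage of satellite cells from quiescence to activation.

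The sorted cells carried their defining markers. All 12 satellite cell markers examined, among them Myf5, Vcam1, Itga7 and Pax7, whose reporter was the basis of the sort, were above 1 TPM. Their summed level was 7984 to 8427 TPM per library. Much of it was Sdc4, at 4272, 4219 and 3915 TPM in replicates 1 to 3. The other 11 summed to 4068 to 4208 TPM, and Pax7 was at 56.8, 46.4 and 51.1 TPM. Markers of other cells were present as well. The 8 fibro-adipogenic markers summed to 2164 to 2456 TPM with 6 above 1 TPM, the 7 endothelial markers to 1556 to 2837 TPM with 7 above, and the 7 leukocyte markers to 83.8 to 128 TPM with 3 above and Cd3e at 0. Gsn was the highest fibro-adipogenic marker at 992, 888 and 784 TPM in replicates 1 to 3. The other 7 summed to 1380 to 1498 TPM. Pdgfra was the lowest of them at 4.98, 0.11 and 0.06 TPM, and Lum was at 8.58, 6.11 and 0.6 TPM. Most of the endothelial sum was Fabp4, at 1750, 1356 and 2587 TPM in replicates 1 to 3. The other 6 endothelial markers summed to 158 to 249.7 TPM. The 8 muscle fibre markers summed to 77.1 to 158 TPM with 4 above 1 TPM and Myh2 at 0, the 5 pericyte markers to 223 to 280 TPM with 4 above, and the 5 Schwann cell markers to 89.4 to 128 TPM with 3 above. The 9 dissociation response genes, such as Fos and Hspa1b, summed to 9700 to 12416 TPM with 9 above 1 TPM. The 6 proliferation genes summed to 18.1 to 74.7 TPM with 2 above. Most of that range was Birc5, at 0.09, 21.15 and 59.3 TPM in replicates 1 to 3, and the other 5 summed to 15.4 to 23.5 TPM. The part of these other cells in the levels below was not tested. In such a bulk sample, fewer cells that use a gene and less RNA per cell cannot be told apart.

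Most of the acetylation genes were above 1 TPM. Of the 44, 43 were above 0 in at least 1 library and 37 in all 3. Tested with limma, with p-values adjusted by Benjamini-Hochberg over 12822 genes, 36 members lay above 1 TPM, 7 were not decided and Hdac9 was listed at 0 in every library. The 36 are 83.7% of the 43 tested, beside 60.8% of all genes tested. Against 10 TPM, 29 members were above, which is 67.4% of those tested beside 38.2% of all genes, and 12 were not decided. Sirt5 and Sirt6 were below 10 TPM, beside 17.5% of all genes. No member was called below 1 TPM by limma (2.18% of all genes were), nor was any below it at an unadjusted p under 0.05. The median of the member means was 33.1 TPM, beside 11.5 TPM over all genes tested. No test was made of these differences from all genes. The members summed to 2276, 2279 and 2221 TPM in replicates 1 to 3, which is 0.226% of the total on average.

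**Figure D1:**
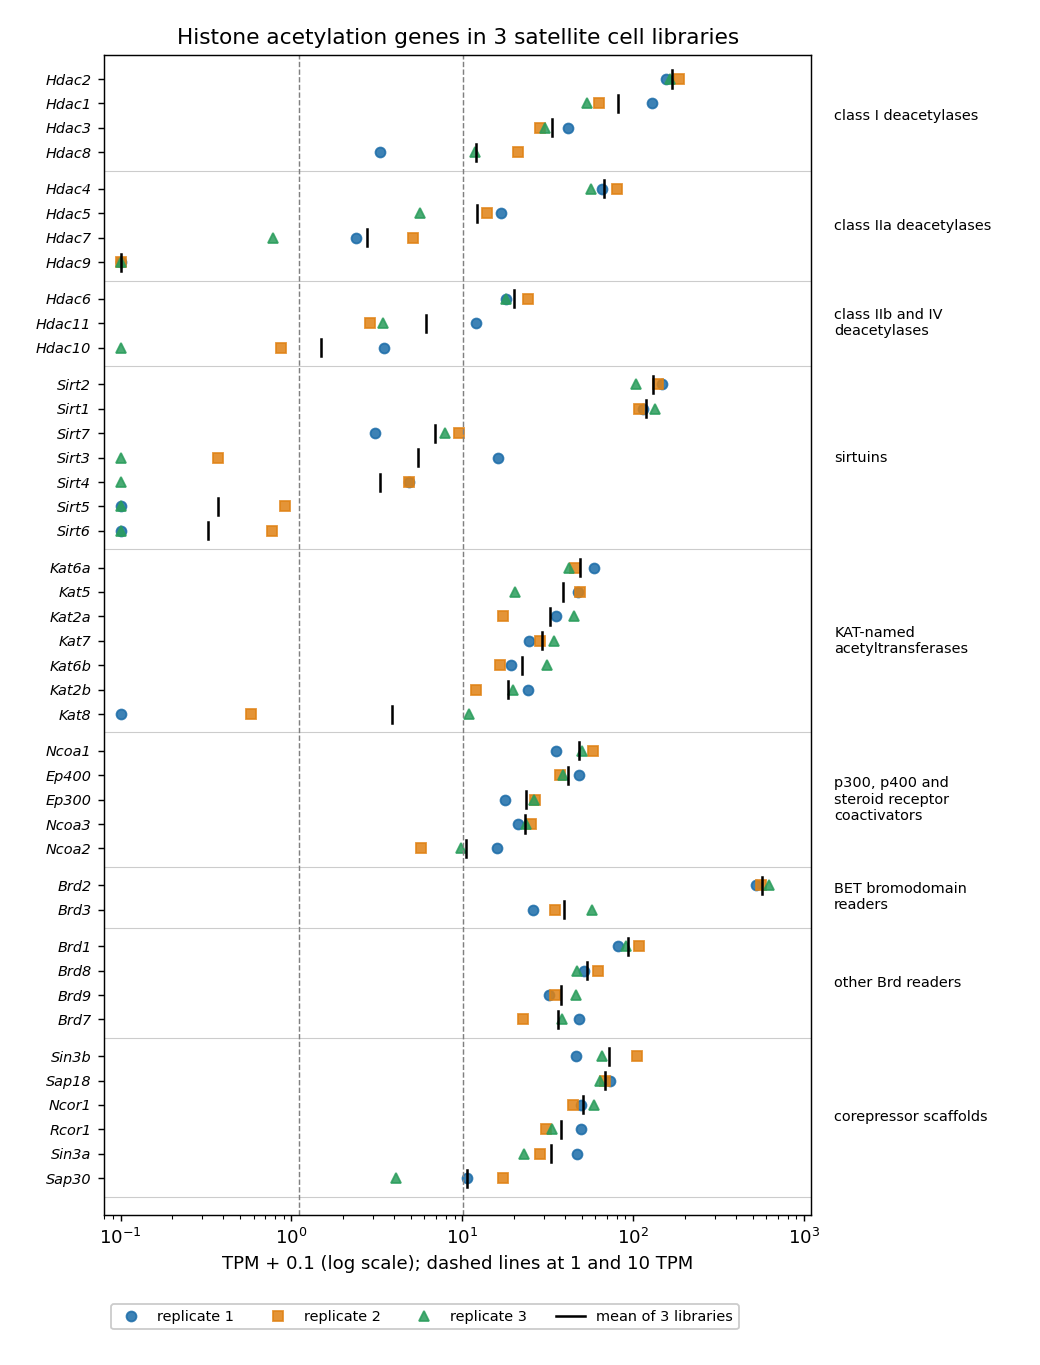
TPM + 0.1 on a log axis for 42 of the 44 genes by role; points are the 3 libraries, black bars their mean, and dashed lines mark 1 and 10 TPM. Brd2 stands highest at 524 to 624 TPM, Hdac9 lies at 0 in every library, and Sirt3, Sirt4, Sirt5, Sirt6, Hdac10 and Kat8 are at 0 in at least 1 library.

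The families have steep internal ranges, and the regions around the starts of their highest and lowest deacetylase genes are shown here to set those genes beside each other: Hdac2 (168.7 TPM on average) and Hdac9 (0 TPM), then Sirt2 (130.2 TPM) and Sirt6 (0, 0.67 and 0 TPM in replicates 1 to 3). Each window runs 5′ to 3′ on the gene's strand from 250 bases before an annotated start to 50 after it (RefSeq, GRCm38.p6), with CG dinucleotides in capitals. Hdac9 has 2 such windows, and 1 of the overlapping pair for Sirt6 is given.
Hdac2, chr10:36974294-36974593, plus strand: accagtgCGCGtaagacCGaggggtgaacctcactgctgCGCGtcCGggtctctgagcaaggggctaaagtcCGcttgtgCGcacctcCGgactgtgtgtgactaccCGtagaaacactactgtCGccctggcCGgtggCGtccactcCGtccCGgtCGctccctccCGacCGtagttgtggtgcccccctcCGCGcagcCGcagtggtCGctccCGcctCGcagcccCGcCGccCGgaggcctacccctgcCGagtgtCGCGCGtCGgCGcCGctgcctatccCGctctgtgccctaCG
Hdac9 start a, chr12:34917046-34917345, minus strand: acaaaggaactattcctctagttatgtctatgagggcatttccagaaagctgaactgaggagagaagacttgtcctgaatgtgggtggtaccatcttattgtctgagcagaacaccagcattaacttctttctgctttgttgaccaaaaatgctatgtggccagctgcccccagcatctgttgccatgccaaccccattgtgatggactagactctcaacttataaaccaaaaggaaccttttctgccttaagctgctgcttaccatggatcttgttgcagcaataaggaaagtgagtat
Hdac9 start b, chr12:34528840-34529139, minus strand: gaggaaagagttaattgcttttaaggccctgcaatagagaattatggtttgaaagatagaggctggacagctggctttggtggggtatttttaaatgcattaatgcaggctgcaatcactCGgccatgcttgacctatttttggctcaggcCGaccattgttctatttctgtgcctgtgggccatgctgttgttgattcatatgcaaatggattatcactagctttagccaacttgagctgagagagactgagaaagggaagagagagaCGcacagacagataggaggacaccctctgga
Sirt2, chr7:28766502-28766801, plus strand: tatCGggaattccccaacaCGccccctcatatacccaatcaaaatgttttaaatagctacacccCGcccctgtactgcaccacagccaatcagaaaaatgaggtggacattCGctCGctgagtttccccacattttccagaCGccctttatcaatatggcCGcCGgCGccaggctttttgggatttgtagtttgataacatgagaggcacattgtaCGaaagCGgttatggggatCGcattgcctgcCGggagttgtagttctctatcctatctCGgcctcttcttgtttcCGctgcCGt
Sirt6, chr10:81627517-81627816, minus strand: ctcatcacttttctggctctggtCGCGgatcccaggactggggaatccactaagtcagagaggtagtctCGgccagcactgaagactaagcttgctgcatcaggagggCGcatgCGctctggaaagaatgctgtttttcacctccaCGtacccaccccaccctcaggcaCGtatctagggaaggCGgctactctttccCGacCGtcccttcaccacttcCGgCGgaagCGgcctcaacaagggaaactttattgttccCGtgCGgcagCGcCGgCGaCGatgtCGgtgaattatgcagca
The Hdac2 window held 36 CG dinucleotides in 300 bases, and the Hdac9 windows held 0 and 3. Sirt2 and Sirt6 differed less, with 16 and 20. RefSeq windows were matched for 35 of the 44 members (50 windows), and their median was 22 CG dinucleotides, ranging from 0 to 49. The median was 14 over the 18603 windows of all genes in the table and 22 over the 6693 windows of genes that average at least 10 TPM, equal to the median of the members. Brd8, Hdac1, Hdac3, Hdac10, Kat6a, Ncoa2 and Ncoa3 were among those with no window here.

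Short motifs were counted in the same windows on both strands, as a description of the letters. The GC-box GGGCGG was in 66% of member windows, against 48.6% of all windows and 66.6% of windows of genes at 10 TPM or more. The ETS core CCGGAAG was in 20% of member windows, against 11.9% and 18.1%, and was found at Brd2, Brd9, Kat5, Kat7, Kat8, Ncor1, Sirt3, Sirt6 and Sirt7. The E-box CANNTG, the kind of site MyoD binds, was in 54% of member windows, against 68.5% and 61.05%. TATAAA was in 8%, against 12.1% and 7.22%, at Hdac8, Hdac9, Sap18 and Sin3b. The AP-1 motif TGANTCA was in 8%, against 7.02% and 5.06%. The NRF1 motif (GCGCA, any base, then GCGC) was in 10%, against 6.76% and 11.04%, and the cyclic AMP response element TGACGTCA was in 0 of the 50 windows, against 2.33% and 3.33%.

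Among the zinc-dependent deacetylases, class I genes supplied most transcripts. Class I comprises Hdac1, Hdac2, Hdac3 and Hdac8. HDAC1 and HDAC2 are the catalytic subunits of the NuRD, SIN3 and CoREST complexes and HDAC3 that of NCoR, whereas HDAC8 works outside them. They held 73.1% ± 2.75 of the summed TPM of the 11 Hdac genes, class IIa genes held 20.2% ± 2.76, and Hdac6, Hdac10 and Hdac11 together held 6.71% ± 0.647. The Hdac genes summed to 448, 425 and 345 TPM in replicates 1 to 3. All 4 class I genes were above 1 TPM, and 3 of them were above 10 TPM (limma, Benjamini-Hochberg).

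Hdac1 (chromosome 4, 129516104 to 129542713, GRCm38) was at 128.6, 63.1 and 53.5 TPM, so replicate 1 was 2.40 times replicate 3. Hdac2, its close paralogue in the same complexes (chromosome 10, 36974544 to 37001889), was at 156, 185 and 165 TPM. The ranges of the 2 genes did not overlap. Hdac1 was lower than Hdac2 in 3 of 3 libraries, by a log2 ratio of -1.15 ± 0.756 (2.22-fold lower). The log2 ratio was -1.59 without replicate 1, -0.949 without replicate 2 and -0.916 without replicate 3. Hdac1 has a near copy in the annotation: 62.7% of the 31-base words of its longest transcript also occur in other genes, 60.7% in Gm10093, while Hdac2 shared 0%. How reads were divided between such copies was not given, so the level of Hdac1 is uncertain.

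Hdac3, the catalytic subunit of the NCoR complex, was at 41.6, 28.5 and 30.4 TPM. It lay below Hdac1 in 3 of 3 libraries, and the log2 ratio of Hdac1 to Hdac3 was 1.196 ± 0.409. Hdac8, which acts on cohesin among other targets, was the lowest of the class at 3.18, 21.0 and 11.8 TPM. Its highest library was 6.60 times its lowest. Hdac8 was not decided against 10 TPM (limma adjusted p = 0.883), and the log2 ratio of Hdac3 to Hdac8, 1.82 ± 1.66, was hardly larger than its spread.

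Class IIa genes were led by Hdac4. These enzymes shuttle between nucleus and cytoplasm under kinase control and have weak catalytic activity of their own. Hdac4, known in muscle for its response to denervation (chromosome 1, 91928779 to 92195699), was at 65.8, 80.4 and 56.8 TPM. Exons on the opposite strand, with Gm26720 the largest overlap, cover 22.4% of the exon length of Hdac4. Without a stated strand setting, reads of such overlapping genes cannot be told apart. Hdac5 was at 16.8, 13.9 and 5.54 TPM, below Hdac4 in 3 of 3 libraries. Hdac4 exceeded it by 2.61 ± 0.689 on the log2 scale (6.09-fold). Hdac7, best known from endothelium and lymphocytes, measured 2.30, 5.01 and 0.68 TPM, on neither side of 1 TPM (limma adjusted p = 0.535). The ratio of Hdac5 to Hdac7 was 2.37 ± 0.798 on the log2 scale, higher in 3 of 3 libraries. Hdac9 (chromosome 12, 34047580 to 34917095) was listed at 0 in all 3 libraries, and a 0 in such a table can be a failed estimate.

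The MEF2 factors that class IIa enzymes bind were present beside them. Mef2d averaged 118 ± 7.93 TPM, Mef2a 82.4 ± 22.3 TPM and Mef2c 6.70 ± 4.13 TPM, and Mef2b was listed at 0 in all libraries. The first 3 were above 1 TPM (limma, Benjamini-Hochberg). Mef2c was not above it without replicate 1 (limma adjusted p = 0.129).

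Together, the remaining Hdac genes held a smaller share of the Hdac sum than class I or class IIa. Hdac6, a mostly cytoplasmic deacetylase of tubulin, was at 17.9, 24.2 and 18.0 TPM and above 10 TPM (limma adjusted p = 0.0188), but not without replicate 2 (0.176). Hdac11, the class IV enzyme, was at 11.97, 2.80 and 3.33 TPM. It was above 1 TPM (limma adjusted p = 0.0438), but not without replicate 1 (0.372), with a pseudocount of 1 or with no filter. Exons on the other strand, with Gm44002 the largest overlap, cover 17.9% of the exon length of Hdac11. Hdac10, a polyamine deacetylase, measured 3.40, 0.77 and 0 TPM, on neither side of 1 TPM (limma adjusted p = 0.723). It lay below Hdac6 in 3 of 3 libraries.

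**Figure D2:**
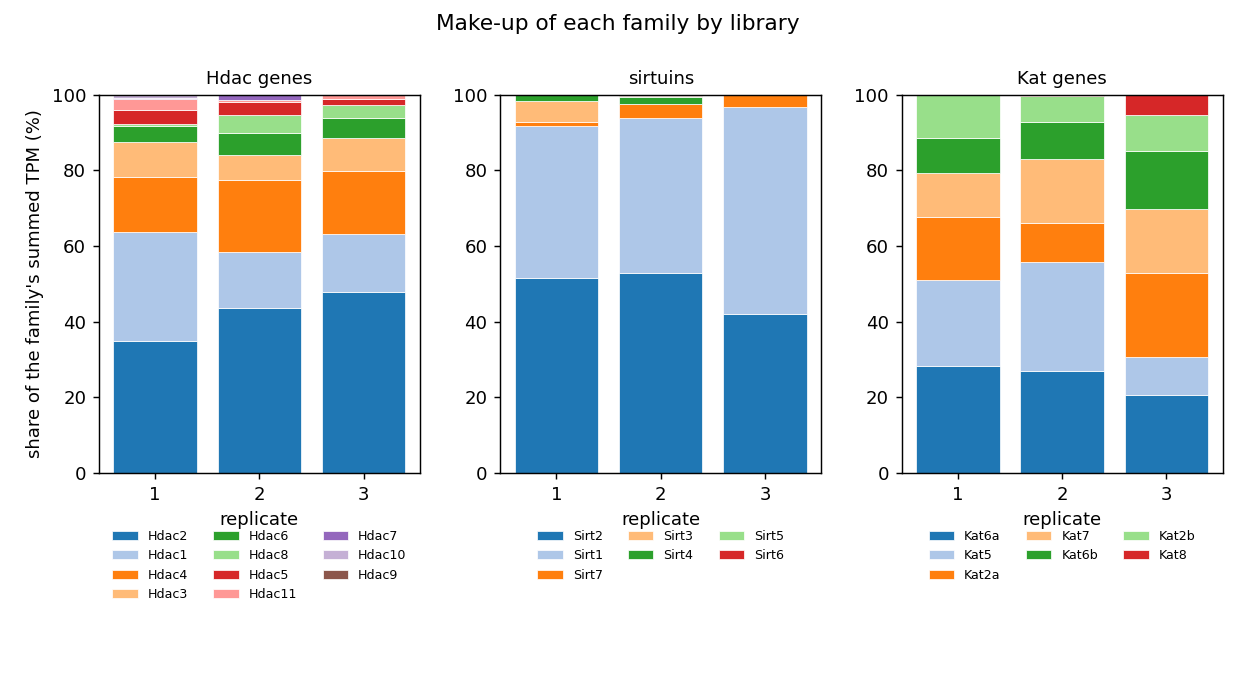
Share of each family's summed TPM (in percent) held by each gene, 1 bar per library; colours are genes, ordered by mean share from the bottom. Hdac2 holds 34.9% to 47.8% of the Hdac sum, and Sirt1 and Sirt2 together 91.6% to 96.8% of the sirtuin sum, while no Kat gene exceeds 29.0%.

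The sirtuin family was divided sharply between Sirt1 and Sirt2 and the other members. Sirtuins are NAD-dependent deacetylases; SIRT1 is mainly nuclear and SIRT2 mainly cytoplasmic, SIRT3, SIRT4 and SIRT5 reside in mitochondria, SIRT6 is bound to chromatin and SIRT7 is nucleolar. Sirt1 and Sirt2 together held 94.1% ± 2.59 of the sirtuin sum. Sirt1 (chromosome 10, 63319005 to 63381704) was at 114, 108 and 135 TPM and Sirt2 (chromosome 7, 28766735 to 28788661) at 147, 140 and 103 TPM. Sirt2 was the higher in replicates 1 and 2 and Sirt1 in replicate 3. The log2 ratio of Sirt1 to Sirt2, -0.12 ± 0.434, was smaller than its spread (exact sign-flip permutation p = 1, two-sided, n = 3).

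The other 5 sirtuins were all far lower. Sirt7 was at 2.98, 9.51 and 7.85 TPM and was above 1 TPM (limma adjusted p = 0.0110), but not without replicate 2 (0.0838). Sirt3 was at 16.03, 0.27 and 0 TPM, so nearly all of its signal came from replicate 1. Sirt4 was at 4.80, 4.77 and 0 TPM. Neither was decided against 1 TPM (limma adjusted p = 0.869 and 0.897). Sirt5 was at 0, 0.82 and 0 TPM, and Sirt6 (chromosome 10, 81621785 to 81627797) was at 0, 0.67 and 0 TPM. Both were below 10 TPM (limma adjusted p = 0.00510 and 0.00411). The calls were not made without replicate 1 (0.172 and 0.168) or replicate 3 (0.190 each), and both genes had 0 in the 2 libraries that remain without replicate 2. No member was called below 10 TPM without 1 replicate, even at an unadjusted limma p under 0.05, so the lost calls set neither gene apart. Sirt6 lay below Sirt7 and below Sirt1 in 3 of 3 libraries each. Of Sirt5, 41.0% of the 31-base words occur in other genes. Exons on the other strand, with Ric8a the largest overlap, cover 12.7% of the exon length of Sirt3.

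The NAD supply enzymes on which sirtuins draw differed in level. Nampt, the rate-limiting enzyme of NAD salvage, averaged 84.3 ± 7.73 TPM. The nuclear enzyme Nmnat1, which completes NAD synthesis, was at 0, 4.85 and 0 TPM, and Nmnat2 was at 2.03, 0 and 0 TPM. Acly, which makes cytosolic and nuclear acetyl-CoA from citrate, averaged 107 ± 8.82 TPM, while Acss2, which makes it from acetate, averaged 5.52 ± 1.70 TPM. Acss2 was above 1 TPM, but not without replicate 2 (limma adjusted p = 0.107). Of the 8 genes of this supply list, 5 were above 1 TPM and 2 above 10 TPM.

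The Kat acetyltransferases were spread more evenly. Of 7, 6 were above 1 TPM and 5 above 10 TPM, with means of 18.5 to 48.9 TPM for all but Kat8. The MYST enzymes (Kat5, Kat6a, Kat6b, Kat7 and Kat8) held 74.3% ± 7.63 of the Kat sum, and the GNAT enzymes Kat2a and Kat2b held 25.7% ± 7.63. Kat6a (MOZ), a regulator of stem cells in several tissues, was the highest at 59.2, 45.6 and 42.0 TPM. Its paralogue Kat6b (MORF) was at 19.1, 16.6 and 30.98 TPM, below Kat6a in 3 of 3 libraries. Kat6a exceeded it by 1.17 ± 0.640 on the log2 scale. Kat6b was above 10 TPM (limma adjusted p = 0.0126), but not without replicate 3 (0.148) or with no variance trend (0.0585).

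Kat5 (TIP60), the catalytic subunit of the NuA4 complex, was at 47.7, 49.0 and 20.1 TPM, with replicate 3 the low library. Exons on the other strand, with Rnaseh2c the largest overlap, cover 12.1% of the exon length of Kat5. Rnaseh2c was at 20.9, 8.69 and 19.3 TPM. Kat7 (HBO1), which acts at replication origins and in transcription, averaged 29.1 ± 4.91 TPM. Kat2a (GCN5), the enzyme of the SAGA and ATAC complexes, was at 35.2, 17.2 and 44.9 TPM. Kat2b (PCAF), which can take its place there, was at 24.0, 11.9 and 19.6 TPM. Kat2a was higher than Kat2b in 3 of 3 libraries, by a log2 ratio of 0.76 ± 0.378. Replicate 2 was the lowest library for both genes. Kat2b was not decided against 10 TPM (limma adjusted p = 0.0660), and was above it without replicate 2 (0.0220). A pseudogene, Kat2b-ps, holds 15.4% of the 31-base words of Kat2b.

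Kat8 (MOF), the acetyltransferase of the MSL and NSL complexes (chromosome 7, 127912516 to 127925837), stood apart from the other Kat genes. It was at 0, 0.48 and 10.8 TPM, so its signal came almost entirely from replicate 3. It was not decided against 1 TPM (limma adjusted p = 0.873). Kat5 and Kat7 exceeded it in 3 of 3 libraries each. The 9 other MSL and NSL genes in the lists had means from 12.2 TPM for Kansl1 to 117 TPM for Kansl2. In replicates 1 and 2 the lowest of them were at 8.88 and 14.2 TPM, but in replicate 3 the lowest, Phf20, was at 12.1 TPM, close to Kat8. Kansl2, 38.4% of whose 31-base words occur in Kansl2-ps, averaged 117 ± 8.92 TPM, and Kansl3 averaged 88.4 ± 5.07 TPM. Kansl1 and Phf20 were chosen after their values were seen. For Kat8, 12.5% of its 31-base words occur in other genes.

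Coactivators outside the Kat names were also present. Ep300, which encodes p300 (chromosome 15, 81585351 to 81652077), was at 17.7, 26.7 and 26.0 TPM. Its paralogue Crebbp, which encodes CBP, was at 76.7, 70.5 and 83.4 TPM. The ranges did not overlap, and the log2 ratio of Ep300 to Crebbp was -1.73 ± 0.358 (3.31-fold lower for Ep300, in 3 of 3 libraries). Ep400, the ATPase scaffold of the NuA4 complex, averaged 41.4 ± 6.04 TPM and exceeded Ep300 in 3 of 3 libraries. Over Ep400, Ep300 had a log2 ratio of -0.83 ± 0.533.

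The 3 steroid receptor coactivators, which carry p300 and CBP to nuclear receptors, differed in level. Ncoa1 was at 35.3, 58.3 and 49.97 TPM, Ncoa2 at 15.8, 5.66 and 9.73 TPM, and Ncoa3 at 21.1, 24.97 and 23.4 TPM. Ncoa2 was the lowest of the 3 in every library. The log2 ratio of Ncoa1 to Ncoa2 was 2.28 ± 1.10, and that of Ncoa2 to Ncoa3 was -1.26 ± 0.854. Ncoa2 was not decided against 10 TPM (limma adjusted p = 0.917).

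**Figure D3:**
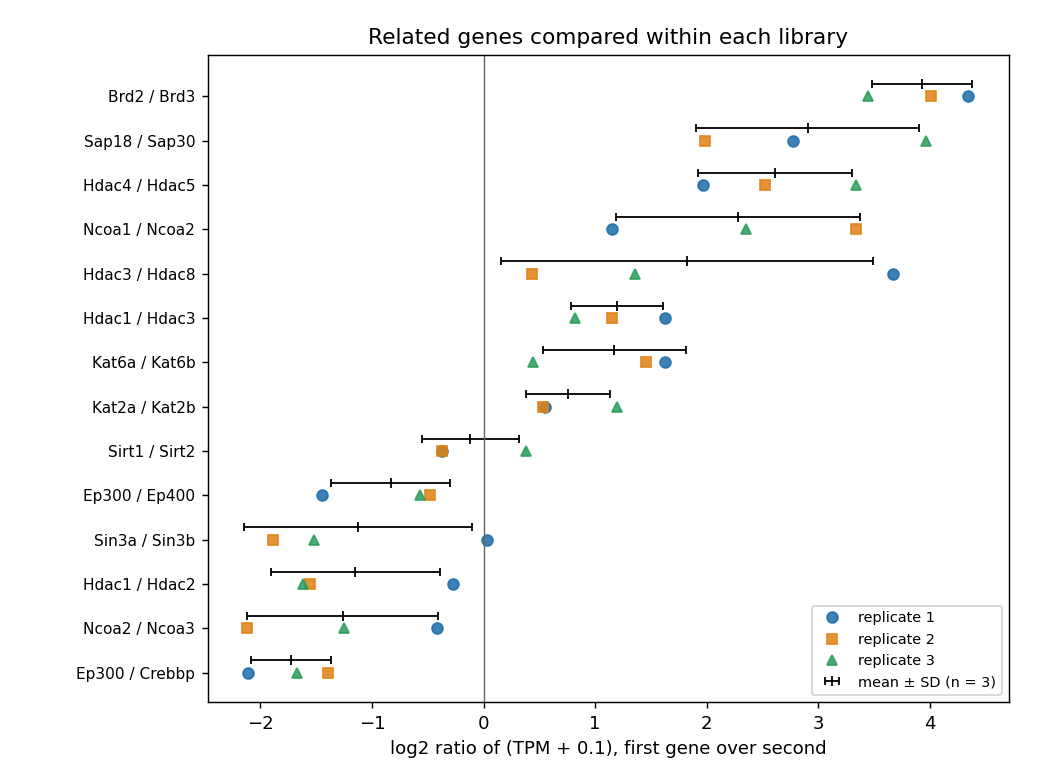
Log2 ratio of TPM + 0.1, first gene over second, for the 14 pairs in which both genes average at least 5 TPM; coloured points are libraries and black bars the mean ± SD (n = 3). Brd2 over Brd3 lies between 3.44 and 4.34, Ep300 over Crebbp between -2.11 and -1.40, and Sirt1 over Sirt2 and Sin3a over Sin3b have points on both sides of 0.

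Among the readers, Brd2 was higher than any other member. BRD2 and BRD3 are BET proteins, which bind acetylated histones through tandem bromodomains. Brd2 (chromosome 17, 34112023 to 34122634) was at 524, 561 and 624 TPM and held 25.2% of the summed TPM of all 44 genes. Its mean exceeded that of 98.5% of all genes in the table. Brd3 was at 25.8, 34.9 and 57.2 TPM, with replicate 3 at 2.21 times replicate 1. Brd2 was higher than Brd3 in 3 of 3 libraries, by 3.93 ± 0.451 on the log2 scale (15.2-fold). Of the exon length of Brd2, 9.78% is covered by exons of other genes on the opposite strand. Brdt, the testis member of the family, was listed at 0, 6.40 and 0 TPM.

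All of the Brd genes were above 10 TPM. Brd1, a scaffold of MYST complexes, averaged 93.5 ± 13.9 TPM. Brd8, a NuA4 subunit, averaged 53.3 ± 7.94 TPM, and Brd9, a subunit of the non-canonical BAF remodeller, averaged 37.7 ± 7.56 TPM. Brd7, of the PBAF remodeller, was at 48.1, 22.6 and 38.4 TPM, with replicate 2 the lowest.

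The corepressor components that hold deacetylases on chromatin were present throughout. All 7 were above 1 TPM and 6 above 10 TPM, with a median of 50.9 TPM. Ncor1, the scaffold that binds HDAC3, was at 49.6, 44.2 and 58.8 TPM, with replicate 3 the highest. The scaffold Sin3a was at 47.0, 28.4 and 22.8 TPM and its paralogue Sin3b at 46.0, 105.2 and 65.5 TPM. Sin3a was lower in replicates 2 and 3, whereas the 2 genes were nearly equal in replicate 1. The log2 ratio of Sin3a to Sin3b was -1.12 ± 1.02 (exact sign-flip permutation p = 0.5, two-sided, n = 3). It was -1.70 without replicate 1, -0.743 without replicate 2 and -0.926 without replicate 3.

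Rcor1, which links deacetylases to the demethylase KDM1A in CoREST, averaged 37.8 ± 10.1 TPM. Sap18 was at 72.6, 68.2 and 63.5 TPM, with the smallest relative spread of the members above 0. Of its 31-base words, 18.5% occur in other genes, 14.7% in Sap18b. Sap30, another small SIN3 subunit, was at 10.6, 17.2 and 3.98 TPM, below Sap18 in 3 of 3 libraries. Sap18 exceeded it by 2.90 ± 0.998 on the log2 scale. Sap30 was not decided against 10 TPM (limma adjusted p = 0.825).

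Over the 22 pairs compared, the libraries shared a direction in 19. The exact sign-flip permutation p was 0.25 in each of those, two-sided, which is the smallest that 3 libraries allow, so no pair could pass a threshold of 0.05. In 11 of the 22 the mean log2 ratio was at least 2 times its SD.

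The subunits that complete the acetylation complexes, and related genes, were described from lists drawn up by complex or by function. The lists by function held other acetyltransferases, further readers, acetyl-CoA and NAD supply genes and MEF2 factors. Of the 132 genes with a row in all lists together, 114 were above 1 TPM, beside 60.8% of all genes tested. Above 10 TPM were 80, beside 38.2% (limma, Benjamini-Hochberg). Rcor2 and Mef2b were listed at 0 in all libraries. Leaving out 1 library ended the call above 1 TPM for 4 genes (Taf12, Brms1, Acss2 and Mef2c). It ended the call above 10 TPM for 7 (Supt20, Msl3, Brpf3, Suds3, Ing2, Mllt1 and Pbrm1) and the call below 10 TPM for 6 of 6. In the fits without 1 library, no gene of these lists was below 10 TPM even at an unadjusted limma p under 0.05. The lost calls below 10 TPM therefore set no gene apart. Of the 127 found in the annotation, 23 had 10% or more of their 31-base words in other genes too, so their levels are uncertain. Among those named here, the share was 99.6% for Brms1 (with AC124502.3), 78.002% for Taf9 (with Ak6), 38.4% for Kansl2 and 25.6% for Morf4l2. It was 25.4% for Morf4l1, 21.8% for Rbbp7, 21.6% for Phf20, 14.7% for Zmynd11 and 10.1% for Acss2. No gene of these lists was called below 1 TPM, nor was any below it at an unadjusted p under 0.05. The median was 33.1 TPM for the 44 members and 28.7 TPM for these 132 genes. All 12 NuRD subunits were above 1 TPM and 10 above 10 TPM, with a median of 106 TPM. They were led by the histone chaperone Rbbp7 at 445 ± 74.7 TPM and the remodeller Chd4 at 292 ± 23.2 TPM, and the lowest was Chd3 at 13.7 ± 2.76 TPM.

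NuA4 subunits reached the highest level of any list through the MRG family genes Morf4l2 and Morf4l1, at 893 ± 101 and 463 ± 39.7 TPM. Of its 14 genes, 12 were above 1 TPM and 11 above 10 TPM, and the lowest, Dmap1, was at 8.99, 0 and 6.77 TPM. Of 23 SAGA and ATAC subunits, 18 were above 1 TPM and 11 above 10 TPM. Wdr5 averaged 123 ± 17.7 TPM and Taf9 116 ± 3.68 TPM, whereas the adaptor Tada3 was at 5.51, 0 and 0 TPM. Of 16 genes of the MSL, NSL, MOZ and HBO1 complexes, 14 were above 1 TPM and 10 above 10 TPM, led by Kansl2 and Kansl3, with Phf15 the lowest at 4.81 ± 2.95 TPM.

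All 10 further SIN3 subunits were above 1 TPM and 5 above 10 TPM, from Arid4b at 127 ± 19.9 TPM and Arid4a at 43.1 ± 6.08 TPM to Brms1 at 8.01 ± 7.43 TPM. Brms1 was not above 1 TPM without replicate 2 (limma adjusted p = 0.264). Of 9 CoREST genes, 7 were above 1 TPM and 5 above 10 TPM, led by the demethylase Kdm1a at 139 ± 11.99 TPM and Zmym2 at 36.9 ± 6.39 TPM. The 3 further NCoR subunits were all above 1 TPM, with Gps2 at 73.1 ± 43.1 TPM, Tbl1x at 33.2 ± 5.57 TPM and Tbl1xr1 at 14.2 ± 4.39 TPM.

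Of 22 further bromodomain and YEATS readers, 21 were above 1 TPM and 15 above 10 TPM, led by Zmynd11 at 201 ± 39.7 TPM and Baz1a at 192 ± 12.9 TPM, with Brdt the lowest. Of 11 other acetyltransferases, 9 were above 1 TPM and 7 above 10 TPM. Naa50, which acetylates protein N-termini, averaged 546 ± 19.1 TPM, and the circadian factor Clock averaged 76.9 ± 1.45 TPM. Esco2, a cohesin acetyltransferase of S phase, was at 0, 0 and 4.92 TPM.

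The spread between libraries was set beside that of all genes. Of the 41 with a mean of at least 1 TPM, 19 had a highest library at least 2 times the lowest or a library at 0, which is 46.3%, beside 54.4% of all 11318 such genes. Among members averaging at least 10 TPM the count was 12 of 34, or 35.3%, beside 32.4% of 6765 genes. The median SD on the log2 scale was 0.28 for those 34 members and 0.35 for those 6765 genes. The 19 are Brd3, Brd7, Hdac1, Hdac5, Hdac7, Hdac8, Hdac10, Hdac11, Kat2a, Kat2b, Kat5, Kat8, Ncoa2, Sap30, Sin3a, Sin3b, Sirt3, Sirt4 and Sirt7. The count was 7 of 39 (17.9%) without replicate 1, 14 of 41 (34.1%) without replicate 2 and 12 of 40 (30.0%) without replicate 3. The shares of all genes without the same replicates were 37.5%, 38.9% and 36.9%. Replicate 1 was the highest library for 17 members, replicate 2 for 17 and replicate 3 for 9. These counts were not set beside those of all genes, so whether they are particular to the members was not tested.

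**Figure D4:**
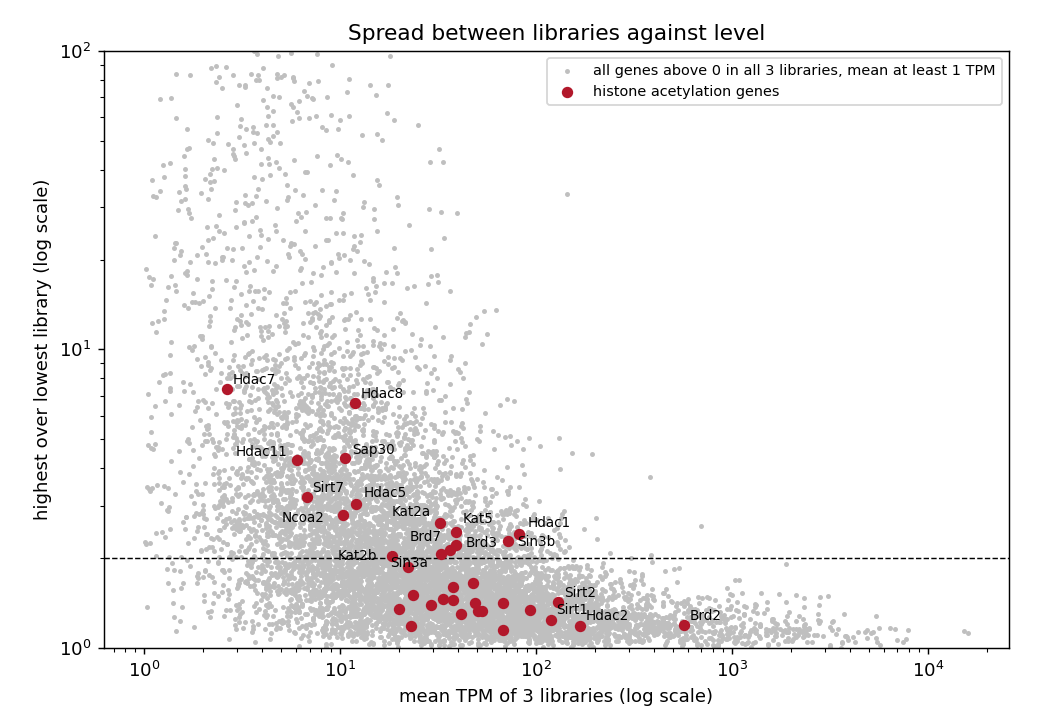
Highest over lowest library against mean TPM, both on log axes, for all genes above 0 in every library with a mean of at least 1 TPM (grey) and 35 of the histone acetylation genes among them (red); the dashed line marks 2-fold, and 38 grey genes lie beyond the top of the axis. Spread is wider at low levels for both sets, and Brd2, Hdac2, Sirt1 and Sirt2 lie below 1.5-fold.

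Across the 44 members, levels were set beside what the annotation gives of their transcripts. The mean level had a Spearman rho of 0.25 with the length of all exons, -0.08 with GC content and 0.01 with the share of 31-base words found in other genes. These values are across genes, which share the same 3 libraries and are not replicates. Shared words reached at least 10% in 7 members, and overlap with exons of other genes reached at least 10% in 4. Between libraries, the Spearman correlation over the 44 members was 0.90 to 0.93, beside 0.84 to 0.85 over all genes tested. The sets were not matched for level, with medians of 33.1 TPM for the members and 11.5 TPM for all genes tested.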

How the data were processed

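The authors deposited 1 table of TPM for 20308 rows and 3 libraries; by its name, TPM was rescaled after removal of mitochondrial genes. Per the submitters' processing notes, which give no roles, the tools included RSEM 1.2.3, Bowtie 0.12.9 and CASAVA 1.8, with build mm10; the sources used here do not give settings, annotation, read length or strand. Some exact zeros can be failed estimates, so genes with zeros are given by library. Depth is unknown, and no counting interval is given.

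The titles put the libraries in 1 group. limma 3.58.1 (R 4.3.3) fitted an intercept to log2(TPM + 0.1), for the 12822 genes above 0 in at least 1 library, and tested it two-sided against 1 and against 10 TPM, with moderated variances that follow a trend in level, and Benjamini-Hochberg adjustment across these genes (threshold 0.05). Folds of low genes are understated on this scale. Pairs were compared as log2((TPM + 0.1)/(TPM + 0.1)) within each library. Positions, exon lengths, overlaps and shared 31-base words are from GENCODE M21 (GRCm38, the assembly of mm10), which held all 44 members; promoter windows are from RefSeq. The script was tested on simulated data.

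Members, lists, pairs and tests were chosen with earlier results of these data known. Values per library are given, by rule, for both genes of the pairs described and for the highest and lowest member of each role. They are also given for members not above 1 TPM and members that varied 2-fold. From each list of complex subunits or related genes, at least the 2 highest genes and the lowest are named. The alternatives were other pseudocounts (0.01 and 1), other filters, no variance trend, upper quartile scaling, exon length weighting and leaving out each library. Some results on 2 of the members are not reported here; these genes remain in the counts and medians.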

Additional observations from a re-analysis of the deposited data

How the results depend on the processing

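No paired analysis was possible because the 3 libraries form 1 group. The counts of members above 1 TPM (35 to 36) and above 10 TPM (28 to 29) moved by at most 1 under every alternative run. Members below 1 TPM were 2 instead of 0 with no filter, Hdac9 and Sirt6. Members below 10 TPM were 4 instead of 2 with a pseudocount of 1, and 0 in each fit that left out 1 replicate. Counts of members varying 2-fold ran from 7 to 14 when 1 replicate was left out, against 19. Medians of roles when 1 replicate was left out ran from 2.385 to 6.245 TPM for sirtuins, from 45.995 to 47.4 TPM for the other Brd readers and from 46.9 to 53.7 TPM for the corepressor components.

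Where a sign changed, the value was near 0 or rested on zeros. Leaving out 1 replicate, the log2 ratio of Sirt1 over Sirt2 ran from -0.37 to 0.0063 and that of Sirt3 over Sirt5 from -0.66 to 3.67. Levels on neither side of a threshold also moved across it. Against 1 TPM, the log2 difference without 1 replicate ran from -1.90 to 0.67 for Hdac10, from -2.19 to 1.19 for Kat8, from -2.52 to 1.15 for Sirt3 and from -0.66 to 2.15 for Sirt4. It was 0.37 for Kat8 and 0.48 for Sirt3 with a pseudocount of 1, and -0.72 for Sirt4 with a pseudocount of 0.01. Against 10 TPM it ran from -0.19 to 0.61 for Hdac5, from -0.69 to 0.65 for Hdac8, from -0.42 to 0.31 for Ncoa2 and from -0.62 to 0.43 for Sap30. The cause of these changes was not tested. Among the members not decided against 1 TPM, Hdac7 had values on both sides of it and the others had a library at 0. With 3 libraries of unknown depth, the test placed these members on neither side.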
